A study of Mus musculus with 6 samples.

Results

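Fibroblast nuclei that carried transcripts of Gfpt2, Has2, Cd248, Adgrd1 and Duox1 were examined in the left ventricle of mice with hypertrophic cardiomyopathy and of their wild-type littermates. Barcodes were kept with at least 500 UMIs (unique transcript molecules), at least 300 genes and no more than 5% mitochondrial UMIs. A fibroblast nucleus had at least 3 UMIs of Pdgfra, Dcn, Abca8a and Col8a1 together, at most 1 UMI of Pecam1, Cdh5 and Rgs5 together, and under 1% of its UMIs from Ttn, Ryr2 and Myh6. It was a member when the 5 genes Gfpt2, Has2, Cd248, Adgrd1 and Duox1 summed to at least 2 UMIs and this sum exceeded each of 3 others: Kcnip1, Necab1, Tenm4, Tll2 and Col26a1; Nkain2, Fbn2, Pappa, Fgf10 and Vit; and Postn, Cilp, Thbs4 and Comp. Of 69249 barcodes, 48438 passed quality, 15135 were fibroblast nuclei and 3607 were members, which was 23.8% of the fibroblast nuclei and 7.45% of all nuclei kept. The members were chosen by the measured UMIs of these same nuclei, so the levels of the rule's genes are a description. The fit across all genes also covered genes of the rule, and where one was among its results it is named as such and nothing is read from it.

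Single-nucleus RNA sequencing was performed by the study on left ventricles of male mice at 12 weeks of age, with 6 libraries in 3 groups of 2. WT-CD mice were wild-type littermates on control diet. R403Q-CD mice were heterozygous for the R403Q mutation of the cardiac myosin heavy chain, labelled Myh6+/R404Q, and ate the same control diet. R403Q-EMPA mice had the same genotype and ate that diet with the sodium-glucose cotransporter 2 inhibitor empagliflozin (EMPA) at 0.15 mg per g of diet, approximately 15 mg/kg. The diets began at 9 to 10 weeks. The labels also name 16 weeks of feeding, which an age of 12 weeks does not allow, so the duration before these samples is not given here. Strain was not given in the labels, and they do not say whether the libraries of a group came from separate hearts, so each p-value measures the spread between these libraries only. The mutated gene encodes the myosin of cardiomyocytes, and the fibroblasts studied here carry the allele without being the cells in which it is mainly expressed. Among these 6 libraries EMPA was given only to mutant mice, so no comparison here separates its effect in wild-type animals.

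Adventitial, or universal, fibroblasts lie around vessels and along tissue borders and are known in several organs by Pi16, Dpp4, Cd34 and Ly6a. They lay down microfibrils, elastic fibres and hyaluronan. Gfpt2 is the entry enzyme of the hexosamine pathway, which makes an amino sugar substrate of hyaluronan, and Has2 is the hyaluronan synthase of the plasma membrane. Cd248 (endosialin) is a stromal surface glycoprotein, Adgrd1 an adhesion G-protein-coupled receptor, and Duox1 an oxidase that makes hydrogen peroxide.

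Replicates 1 and 2 held 838 and 733 members in WT-CD, then 574 and 501 in R403Q-CD, with 460 and 501 in R403Q-EMPA. Their median depth was 2883 to 5189 UMIs per nucleus, and their summed UMIs per library were 1529434 to 3434276. Levels below are CPM, the UMIs of a gene scaled to 1000000 UMIs of the member nuclei of a library. Across libraries, 538 barcodes occurred in more than 1 library, 40 member barcodes were among them, and 1 barcode was a member in both. Doublets predicted by scrublet were 54 of the members and were kept, with their removal as an alternative. The replicates of WT-CD stood furthest apart, by a chi-square per degree of freedom on the UMI counts per gene summed over members. This value sets their spread against counting noise alone and was 10.9, against 2.15 in R403Q-CD and 2.97 in R403Q-EMPA. Postn (periostin), which is in the rule, was at 120 CPM in the members of R403Q-EMPA replicate 1 and at 7.86 to 18.8 in the 5 other libraries. Of the same list, Cilp was at 18.7 there against 0.751 to 7.85, and Thbs4 at 6.73 against 0 to 0.654. Comp was at 1.44 there and at 0.582 to 2.68 in the others.

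The label was checked against 20 genes of adventitial or universal fibroblasts. In 18 of the 20, the members were above the remaining fibroblast nuclei in all 6 libraries, and in 19 they were above the Kcnip1 Tenm4 nuclei in all 6. Against the Fbn2 Pappa Fgf10 nuclei this held for 16 of the 20, with Scara5 above in 3 of 6 libraries and Efemp1 in 5. Of 6441 genes at 20 or more CPM in the members of every library, 15.4% were above the remaining fibroblast nuclei in all 6. Pi16, a secreted peptidase inhibitor, was at 610 to 1044 CPM in members and at 172 to 477 in the remaining fibroblast nuclei. Dpp4, a membrane peptidase that marks progenitor-like fibroblasts, was at 83.1 to 193 against 16.2 to 52.9. Cd34 was at 387 to 598 against 188 to 270. Sema3c, a secreted semaphorin, was at 169 to 269 against 52.7 to 64.1. Ackr3, the scavenging receptor of Cxcl12, was at 212 to 383 against 59.5 to 120. All these ranges are apart, so the lowest member library exceeded the highest level of the remaining fibroblast nuclei. The ranges touched for Fbn1 (fibrillin 1, 503 to 835 against 315 to 620) and Mfap5 (267 to 549 against 90.5 to 422), though within each library members were higher. Procr and Uchl1, which were also in the list, were near the detection limit, at 2.78 to 5.77 and at 0 to 4.81 CPM. Of 10 general fibroblast genes outside the rule, 2 were above the remaining fibroblast nuclei in all 6 libraries and 2 were below in all 6. Gsn (gelsolin) and Tcf21, a transcription factor of fibroblast development, were the higher genes, by ratios of 1.28 to 1.97 and 1.17 to 1.99. Lama2 (laminin alpha 2) and Bicc1 were lower in members than in the remaining fibroblast nuclei in all 6 libraries, by ratios of 0.91 to 0.99 and 0.74 to 0.87, and Col1a1 was higher in 5 of 6.

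Among the genes outside the rule, those with the largest smallest ratio over the 6 libraries were led by Papln, Duoxa1 and Efhd1. Papln (papilin, an extracellular matrix protein) was at 24.0 to 39.0 CPM in members and 1.86 to 4.56 in the remaining fibroblast nuclei. Duoxa1, the maturation factor that Duox1 needs to leave the endoplasmic reticulum, was at 25.5 to 52.4 against 1.33 to 5.77. Uap1, which makes the activated amino sugar UDP-N-acetylglucosamine downstream of Gfpt2, was at 433 to 648 against 98.4 to 215. After Papln, Duoxa1 and Efhd1 came Lrrn4cl, the long noncoding RNA F730311O21Rik, Tmem100, Uap1, Ackr3, Sdk1, Dpp4, Gm34567, Sema3c and Limch1. Their smallest ratios ran from 3.83 down to 2.50. Has2os, with a smallest ratio of 2.48, is transcribed antisense to Has2 and is not independent of it. Cd55, which protects cells from complement, Arhgef28, 1700019D03Rik, the transcription factor Klf4, Pi16 and Arhgap20 closed the 20, down to 2.17.

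At the other end stood genes that mural cells also use. Abcc9, a subunit of the ATP-sensitive potassium channel, was at 17.8 to 50.8 CPM in members and 107 to 317 in the remaining fibroblast nuclei. Notch3, the pericyte and smooth muscle Notch receptor, was at 10.1 to 20.3 against 58.3 to 113. Mdga2, Lin7a, Irag1, Pde8b, Egflam and Il34 were also among the 10 genes at this end, at least 3.58 times higher in the remaining fibroblast nuclei of every library.

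Transcripts of other cell types were measured in the members. Summed over 6 markers each, mural genes were at 162 to 243 CPM in members against 439 to 921 in the remaining fibroblast nuclei, and endothelial genes at 72.4 to 123 against 163 to 279. Myeloid genes were at 20.4 to 165 against 179 to 452. Cardiomyocyte genes were at 287 to 438 against 372 to 538. Of the 6 adipocyte markers, Adipoq, Plin1, Cidec and Lep had no UMI in any member, which allows up to 0.197 CPM over all members. The 8 epicardial mesothelial markers were at 53.6 to 171 CPM in members and at 40.5 to 114 in the remaining fibroblast nuclei. These mesothelial UMIs were concentrated in few nuclei, as 0.871% to 1.80% of members per library held at least 3 of them.

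The 5 rule genes were not equally spread over the members. Gfpt2 was seen in 83.1% to 88.5% of members and Adgrd1 in 71.3% to 80.0%. Cd248 was seen in 21.3% to 37.9%, Has2 in 11% to 13% and Duox1 in 7.83% to 15.7%. The members were therefore mostly found through Gfpt2 and Adgrd1, and only 0.399% to 2.46% held all 5 genes. Between 22.9% and 32.1% of members held 1 of the 5 genes alone. For background, nuclei with at least 3 UMIs of Pecam1, Cdh5 and Rgs5 and none of the 4 fibroblast genes were used, 6312 in all with median depths of 2311 to 3600.5 UMIs. Gfpt2 was seen in 2.05% to 3.37% of them, Cd248 in 0.363% to 0.802% and Adgrd1 in 0.121% to 0.802%. Has2 was seen in 0 of 6312, which allows a share of up to 0.0475%.

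At the threshold, 753 members had exactly 2 UMIs of the 5 genes, and 2986 fibroblast nuclei had 1 and were left out. A further 1745 fibroblast nuclei reached 2 UMIs but were at or above that sum in another list. Pi16 was at 231 to 588 CPM in members with 2 UMIs and at 186 to 521 in fibroblast nuclei with 1, and was higher at 2 in all 6 libraries. Fbn1 was at 289 to 570 and 264 to 598, higher at 2 in 4 of 6. The ranges overlapped across the threshold for both genes.

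The members formed a gradient, which is described without a test because the same nuclei define both axes. In members with a sum of 11 or more, Pi16 was at 1039 to 2021 CPM, and its level was higher in each bin than in the one before, over 2, 3 to 5, 6 to 10 and 11 or more UMIs, in all 6 libraries. Sema3c was at 338 to 566 in the top bin, with 40.1 to 112 at a sum of 2. Limch1, a regulator of nonmuscle myosin, was at 257 to 525 against 43.3 to 93.2. The hyaluronan precursor enzymes followed, with Uap1 at 928 to 1501 against 179 to 298 and Ugdh, which makes the other sugar substrate of hyaluronan, at 193 to 463 against 51.4 to 90.4. Cd34, Ackr3, Mfap5, Scara5, Creb5 and Sdk1 also had higher levels in each successive one of the 4 bins in all 6 libraries. Uap1 did so in 5 of 6 libraries, Ugdh and Dpp4 in 4, the adventitial markers Igfbp6 and Efemp1 in 1, and Eln in none, although each was higher in the top bin than at a sum of 2 in all 6. Of the general fibroblast genes, Tcf21 was higher in the top bin than at a sum of 2 in all 6 libraries, by ratios of 1.04 to 2.00, and Col1a1 in 5 of 6. Bicc1 was lower in the top bin than at a sum of 2 in all 6 libraries, by ratios of 0.62 to 0.75, and Lama2 by 0.69 to 0.83. Depth moved with the bins, from a median of 2546 to 4216 UMIs at a sum of 2 to 3372.5 to 5849 at 11 or more. Its part in the gradient was not tested, although levels are relative to the UMIs of each bin.

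**Figure D1:**
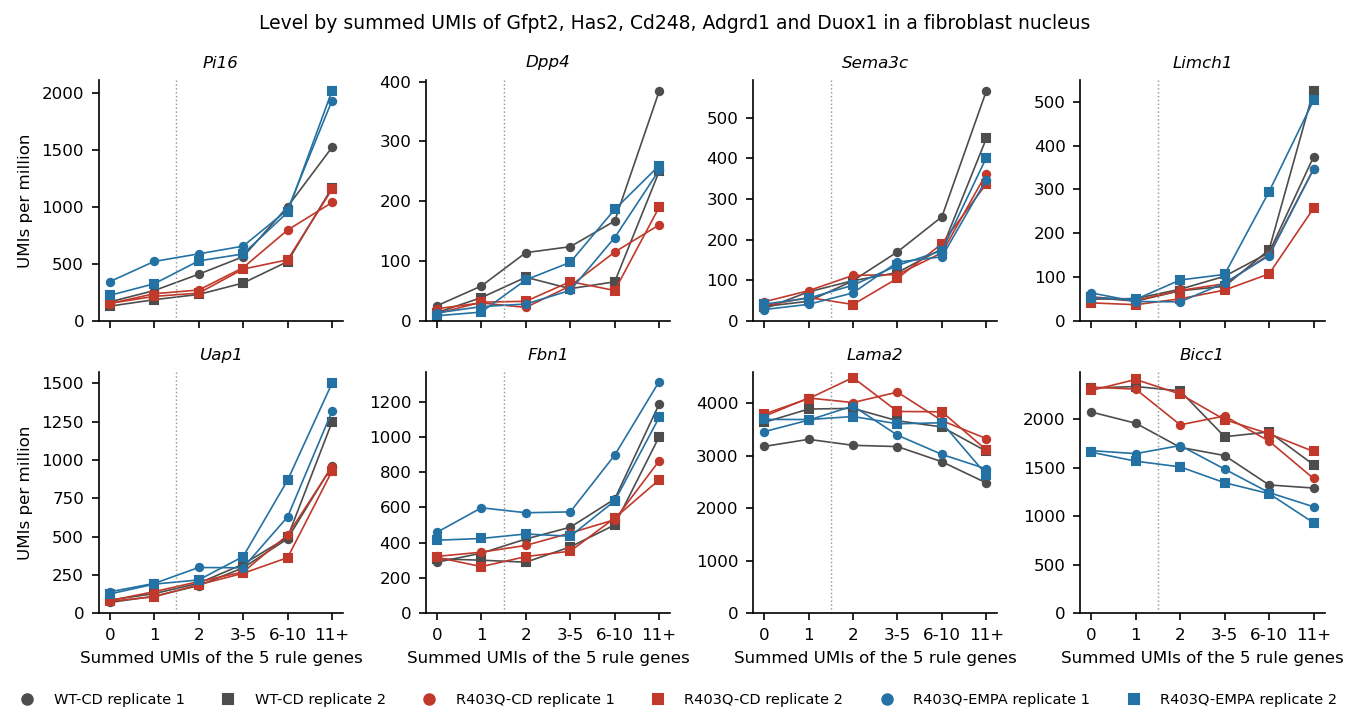
Level in CPM (vertical axis) of 8 genes outside the rule, by the summed UMIs of the 5 rule genes in a fibroblast nucleus (horizontal axis), for each library (lines; color gives the group and symbol the replicate). Nuclei left of the dotted line were not members and nuclei right of it were; Pi16, Sema3c, Limch1 and Uap1 are higher at 11 or more UMIs than at 2 in every library, and Lama2 and Bicc1 end lower.

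Whether the size of this population differed between groups was asked over libraries. Of the fibroblast nuclei, members were 20.3% (95% exact binomial interval 19.1% to 21.5%) and 26.6% (25% to 28.3%) in WT-CD, 22.3% (20.7% to 24.0%) and 24.3% (22.5% to 26.2%) in R403Q-CD, and 27.6% (25.5% to 29.9%) and 25.7% (23.7% to 27.7%) in R403Q-EMPA. The 2 WT-CD libraries enclosed both R403Q-CD libraries, and both R403Q-EMPA libraries lay above both R403Q-CD libraries. The mean was 3.34 percentage points higher in R403Q-EMPA (26.6% ± 1.41, SD, n = 2) than in R403Q-CD (23.3% ± 1.40, n = 2). An exact two-sided permutation test gave p = 0.333, the smallest that 2 libraries against 2 can give, so no share could pass a threshold of 0.05. With at least 3 UMIs of the 5 genes required, the R403Q-EMPA libraries held 21.3% and 18.8% and the R403Q-CD libraries 17.9% and 19.9%, so the groups overlapped and the difference was 1.15 points (exact permutation p = 0.667). R403Q-CD was 0.153 points lower than WT-CD (23.5% ± 4.50, n = 2; exact permutation p = 1), and without WT-CD replicate 2 it was 3.03 points higher. The intervals cover counting error only.

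Among all nuclei kept, members were 8.24% and 9.13% in WT-CD, then 7.23% and 6.86% in R403Q-CD, then 5.58% and 7.42% in R403Q-EMPA. Both R403Q-CD libraries were below both WT-CD libraries, with means of 7.04% ± 0.26 and 8.69% ± 0.63 (SD, n = 2; exact permutation p = 0.333). R403Q-EMPA was at 6.5% ± 1.30. Fibroblast nuclei as a whole were 34.3% to 40.6% of nuclei in WT-CD, 28.2% to 32.4% in R403Q-CD and 20.2% to 28.9% in R403Q-EMPA, so this share moved with that of all fibroblasts. When each nucleus was thinned to 1000 UMIs, which left out 37 to 150 nuclei per library, members were 10.1% and 11.5% of the fibroblast nuclei in WT-CD, 8.30% and 8.98% in R403Q-CD, then 11.1% and 11.9% in R403Q-EMPA.

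The rule sets members against other lists, and these moved as well. Kcnip1 Tenm4 nuclei were 23.1% and 24.6% of the fibroblast nuclei in WT-CD, 21.6% and 20.1% in R403Q-CD, then 8.71% and 8.86% in R403Q-EMPA. The Postn list held 14.4% of the fibroblast nuclei in R403Q-EMPA replicate 1 and 1.09% to 2.76% in the 5 other libraries. Without the Postn list in the rule, members were 34.1% in R403Q-EMPA replicate 1 and 26.3% in replicate 2. The R403Q-EMPA mean was then 6.43 points above R403Q-CD.

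**Figure D2:**
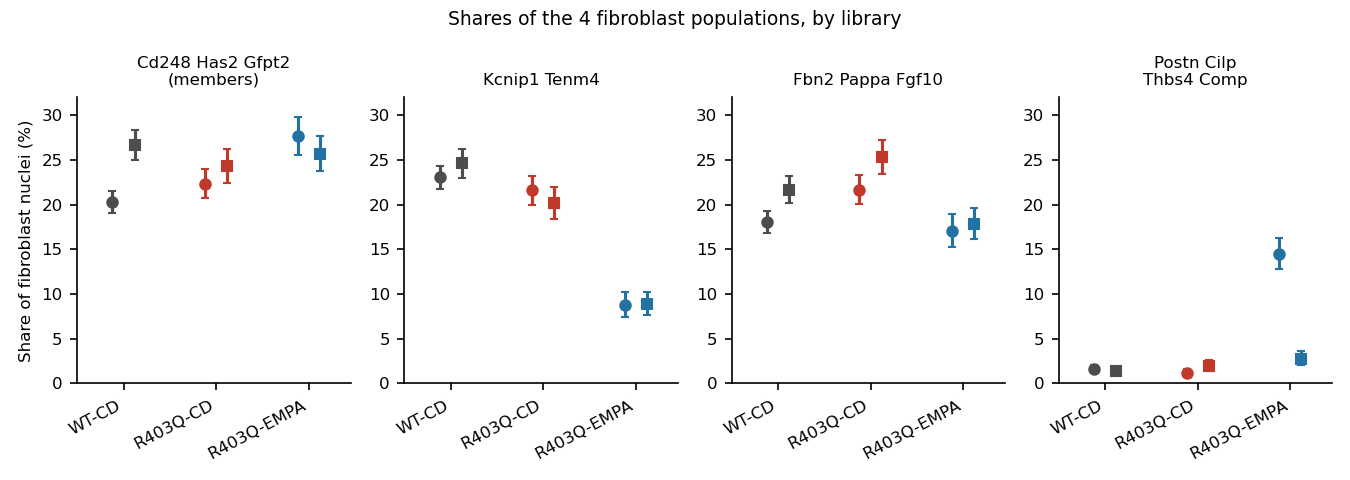
Share of the fibroblast nuclei (vertical axis, percent) in each of the 4 populations by group (horizontal axis), with 1 point per library, circles for replicate 1 and squares for replicate 2, and 95% exact binomial intervals. The members lie between 20.3% and 27.6% in the 6 libraries, while the Kcnip1 Tenm4 share in both R403Q-EMPA libraries is under 9%.

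To find which genes changed within the members, UMIs were summed per library and 12474 genes were tested over all 6 libraries with the quasi-likelihood test of edgeR. The threshold for a call was an adjusted p of 0.05. For R403Q-CD against WT-CD no gene was called (0%). At an unadjusted p under 0.05 there were 440 genes (3.53%), and DESeq2 also called 0. Without WT-CD replicate 2, 229 genes were called, and without WT-CD replicate 1 there were 3. The R403Q-CD libraries were both above both WT-CD libraries for 15.4% of the genes tested and both below for 14.3%.

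The 10 genes with the smallest p in that comparison are given with their values, and none passed (edgeR, adjusted p = 0.898 for each gene outside the rule). Hpse2, an inhibitor of the heparan sulfate-cleaving enzyme heparanase, was at 68.9 and 78.6 CPM in WT-CD, then 36.6 and 28.9 in R403Q-CD, then 9.61 and 14.4 in R403Q-EMPA. Rgs6, which shuts off G-protein signalling, was at 177 and 151, then 85.5 and 80.0, then 54.8 and 80.4. Slc6a6, the taurine transporter, was at 199 and 155, then 91.5 and 109, then 87.5 and 91.5. Neither WT-CD library was as low as either R403Q-CD library for any of the 3, with log2 differences of -1.18 ± 0.22, -0.98 ± 0.19 and -0.81 ± 0.16 (± SE). Kirrel3 and Dact2, an antagonist of Wnt and TGF-beta signalling, had log2 differences of -1.63 ± 0.35 and -1.06 ± 0.24. Ptgds, a prostaglandin D synthase, was at 11.7 and 5.24 in WT-CD, then 28.6 and 24.0 in R403Q-CD, then 28.4 and 34.0 in R403Q-EMPA. The postsynaptic adhesion gene Lrrtm3 had a log2 difference of 1.21 ± 0.25, Sntg1 of 0.83 ± 0.19 and Mndal of 0.99 ± 0.22. Mndal belongs to a family of near-identical interferon-inducible genes, so its reads could be split among copies. Ttn, the giant sarcomere protein of cardiomyocytes, was in the rule, at 227 and 219 in WT-CD, then 425 and 385 in R403Q-CD, then 418 and 314 in R403Q-EMPA. Beside it, the 6 cardiomyocyte markers summed to 287 to 349 CPM in WT-CD members, 352 to 376 in R403Q-CD and 371 to 438 in R403Q-EMPA, and their part in this result was not tested.

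The adventitial genes were compared between R403Q-CD and WT-CD as a list. The fold change was below 0 for 18 of 19 tested adventitial genes, with a median log2 difference of -0.34, against -0.01 over all genes tested. None passed the test. The R403Q-CD libraries were both below both WT-CD libraries for 9 of the 19, where 14.3% of all genes tested were. For R403Q-EMPA against R403Q-CD, which uses the same R403Q-CD libraries, the median was 0.30, with 14 of 19 above 0 and 0 called. There 12 were above and 3 below without overlap, where 27.0% and 19.2% of all genes tested were. Dpp4 was at 193 and 123 CPM in WT-CD and 83.1 and 89.7 in R403Q-CD, a log2 difference of -0.86 ± 0.19 (edgeR, adjusted p = 0.898). Duoxa1 was at 46.5 and 52.4 and at 25.5 and 28.2, a difference of -0.89 ± 0.20 (adjusted p = 0.898). The 5 rule genes are given as a description from which nothing is read. Gfpt2 was at 1106 and 1151 in WT-CD and 723 and 917 in R403Q-CD, and Duox1 at 45.2 and 51.0 and at 27.0 and 21.4. Has2 was at 50.8 and 46.9 in WT-CD, then 43.4 and 45.4 in R403Q-CD, then 47.1 and 67.3 in R403Q-EMPA. Cd248 was at 193 in WT-CD replicate 1 and at 66.8 to 106 in the other 5 libraries.

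Matrix genes were examined next, because fibrillin microfibrils, elastin and hyaluronan are the products by which adventitial fibroblasts are known. In the elastic fibre list of 20 genes, none was called in any comparison. For R403Q-CD against WT-CD the median log2 difference was -0.36, with 17 of 20 below 0 and 8 of 20 below without overlap of the libraries, where 14.3% of all genes tested were. Eln (elastin) was at 130 and 149 CPM in WT-CD, then 107 and 104 in R403Q-CD, then 170 and 140 in R403Q-EMPA. Fbln5 (fibulin 5, which carries elastin to microfibrils) was at 123 and 85.3, then 65.2 and 71.7, then 98.5 and 97.4. The log2 differences of R403Q-CD from WT-CD were -0.41 ± 0.17 for Eln and -0.59 ± 0.18 for Fbln5 (edgeR, adjusted p = 0.999 for both). For R403Q-EMPA against R403Q-CD the median was 0.44, with 17 of 20 above 0 and 13 of 20 above without overlap, where 27.0% of all genes tested were above without overlap. Both comparisons use the same R403Q-CD libraries. Mfap5, a microfibril glycoprotein, was at 438 and 323 in WT-CD, then 296 and 267 in R403Q-CD, then 549 and 391 in R403Q-EMPA. Fbln1 was at 345 and 223, then 221 and 214, then 388 and 329. Loxl1, which crosslinks elastin, was at 193 and 129, then 146 and 135, then 220 and 241. For these genes R403Q-EMPA lay above R403Q-CD by 0.70 ± 0.20, 0.68 ± 0.19 and 0.67 ± 0.18 on the log2 scale (edgeR, adjusted p = 0.290, 0.290 and 0.275). For R403Q-EMPA against WT-CD the median of the list was 0.11.

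The hyaluronan list outside the rule had 13 of 16 genes tested, none called. For R403Q-CD against WT-CD 3 of the 13 were below without overlap of the libraries, where 14.3% of all genes tested were. For R403Q-EMPA against R403Q-CD, which uses the same R403Q-CD libraries, 5 were above and 2 below, where 27.0% and 19.2% of all genes were. Its median log2 difference was -0.06 for R403Q-CD against WT-CD, 0.19 for R403Q-EMPA against R403Q-CD and 0.11 for R403Q-EMPA against WT-CD. Ugdh was at 155 and 137 CPM in WT-CD, then 115 and 111 in R403Q-CD, then 168 and 154 in R403Q-EMPA. Uap1 was at 474 and 648, then 433 and 452, then 633 and 611. Vcan (versican, which binds hyaluronan) was at 464 and 401, then 354 and 328, then 560 and 401. In Ugdh, Uap1 and Vcan both R403Q-CD libraries were lower than the 4 others, a pattern whose share over all genes was not counted. R403Q-EMPA exceeded R403Q-CD by 0.47 ± 0.15, 0.45 ± 0.19 and 0.45 ± 0.18 on the log2 scale (edgeR, adjusted p = 0.368, 0.555 and 0.510). That pattern already fixes the direction of these differences.

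Of the 19 collagen genes in the list, none was called. Col4a3, a basement membrane chain outside the list, was called lower in R403Q-EMPA than in R403Q-CD and is given with the called genes. Col4a6, another basement membrane chain, was at 36.5 and 46.6 CPM in WT-CD, then 62.8 and 95.3 in R403Q-CD, then 53.4 and 46.4 in R403Q-EMPA, with a log2 difference of R403Q-CD from WT-CD of 0.92 ± 0.23 (edgeR, adjusted p = 0.999). Col6a6 was at 193 and 261, then 329 and 357, then 139 and 235, and differed between R403Q-EMPA and R403Q-CD by -0.92 ± 0.24 (adjusted p = 0.250). The fibrillar gene Col1a1 was at 357 and 120, then 154 and 166, then 360 and 205, so WT-CD replicate 1 was beside R403Q-EMPA replicate 1. The median of the collagen list was 0.43 for R403Q-EMPA against R403Q-CD, against 0.00 over all genes, with 13 of 19 above and 2 of 19 below without overlap of the libraries, where 27.0% and 19.2% of all genes were. Col4a6 and Col6a6 had differences below 0 in that comparison.

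Within the members, EMPA was accompanied by 13 called genes against R403Q-CD (0.104% of the genes tested), 6 higher (0.0481%) and 7 lower (0.0561%). In all 13 the libraries of the groups did not overlap. The higher genes were Hsph1, Hspa4l, Stip1, Hsp90aa1, P4ha1 and Kcnc2, and 4 of these 6 encode chaperones or a co-chaperone. Hsph1, the Hsp110 nucleotide exchange factor of Hsp70, was at 45.3 and 35.7 CPM in R403Q-CD and at 187 and 167 in R403Q-EMPA, with 34.1 and 27.7 in WT-CD. Its log2 difference was 2.09 ± 0.19 (edgeR, adjusted p = 0.00198). Hspa4l, another Hsp110 protein, was at 25.5 and 28.2 in R403Q-CD, then 115 and 166 in R403Q-EMPA, a difference of 2.34 ± 0.23 (adjusted p = 0.00323). Stip1, which bridges Hsp70 and Hsp90, was at 16.3 and 24.0 and at 65.9 and 71.9 (1.72 ± 0.23, adjusted p = 0.0207). Hsp90aa1 was at 57.3 and 55.9 and at 140 and 164 (1.38 ± 0.22, adjusted p = 0.0461). In each of these 4 genes both R403Q-EMPA libraries were above all 4 others, and R403Q-CD against WT-CD did not pass the test. P4ha1, the catalytic subunit of collagen prolyl 4-hydroxylase, was at 210 and 221 in R403Q-CD, 447 and 480 in R403Q-EMPA and 208 and 164 in WT-CD (1.06 ± 0.16, adjusted p = 0.0354). Kcnc2, a voltage-gated potassium channel, was at 1.59 and 3.00 in R403Q-CD and at 26.9 and 19.6 in R403Q-EMPA (3.27 ± 0.44, edgeR, adjusted p = 0.0207). These were 4 and 8 UMIs against 56 and 30. WT-CD lay between them, at 7.36 and 11.1.

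The 7 lower genes were Lrrtm3, Cracr2a, Ccbe1, Kcnk2, Il15ra, Itgb8 and Col4a3. Ccbe1, a secreted factor that activates lymphatic growth through Vegfc, was at 466 and 515 CPM in R403Q-CD, 181 and 237 in R403Q-EMPA and 400 and 449 in WT-CD (-1.28 ± 0.19, edgeR adjusted p = 0.0354). Kcnk2, a stretch-sensitive potassium channel, was at 242 and 281 in R403Q-CD, 97.1 and 133 in R403Q-EMPA and 192 and 200 in WT-CD (-1.23 ± 0.18, adjusted p = 0.0354). Cracr2a, a regulator of store-operated calcium entry, was at 129 and 126, then 55.8 and 47.7, with 111 and 123 in WT-CD (-1.34 ± 0.17, adjusted p = 0.0207). All 3 were lower in R403Q-EMPA than in either other group. Il15ra, which presents interleukin 15 to lymphocytes, was at 101 in both R403Q-CD libraries, at 46.6 and 50.3 in R403Q-EMPA and at 110 and 101 in WT-CD (-1.11 ± 0.17, adjusted p = 0.0354). Itgb8, the integrin chain that frees TGF-beta, was at 187 and 164 in R403Q-CD, 90.4 and 83.0 in R403Q-EMPA and 120 and 133 in WT-CD (-1.06 ± 0.17, adjusted p = 0.0461). Col4a3 and Lrrtm3 fell by 0.97 ± 0.15 and 2.36 ± 0.31 on the log2 scale (adjusted p = 0.0461 and 0.0207). When any library of the groups compared was left out, most of the 13 calls were lost. Without either WT-CD library, which does not enter the difference but adds to the estimate of the spread, 227 and 229 genes were called, all 13 among them.

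**Figure D3:**
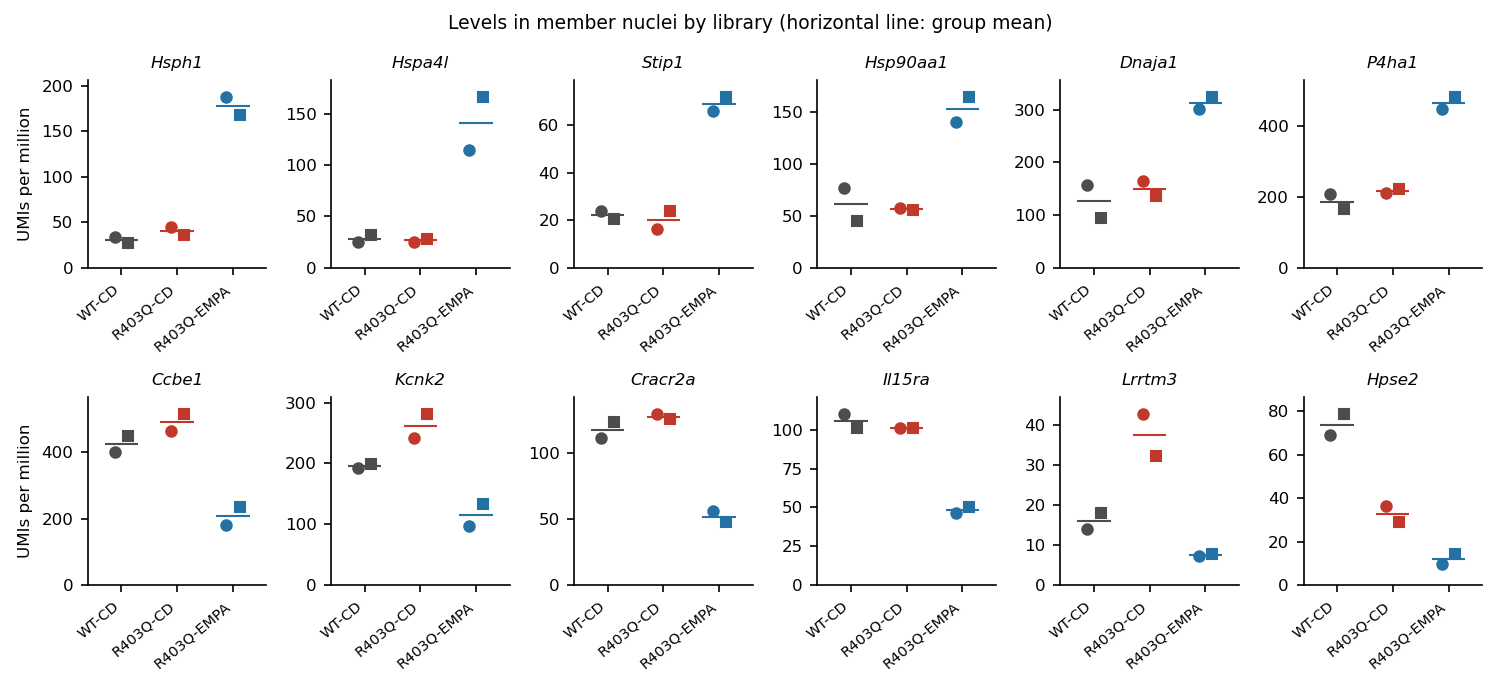
Level in member nuclei, in CPM (vertical axis), of 12 genes called in at least 1 comparison with R403Q-EMPA, by group (horizontal axis), with circles for replicate 1, squares for replicate 2 and a line at the group mean. The upper row shows chaperone genes and P4ha1, each higher in both R403Q-EMPA libraries than in the 4 others, and the lower row shows genes that were lowest in R403Q-EMPA.

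R403Q-EMPA differed from WT-CD in 27 called genes (0.216%), 16 higher (0.128%) and 11 lower (0.0882%), none with overlapping libraries. These share the R403Q-EMPA libraries with the comparison above, and 8 genes were called in both, 61.5% of the 13 and 29.6% of the 27. The chaperone genes rose again, Hsph1 by 2.48 ± 0.19 (edgeR, adjusted p = 0.00035), Hspa4l by 2.25 ± 0.23 (adjusted p = 0.0020), Stip1 by 1.60 ± 0.22 (adjusted p = 0.0232) and Hsp90aa1 by 1.29 ± 0.21 (adjusted p = 0.0402). Dnaja1, an Hsp40 partner of Hsp70, joined them at 158 and 94.1 CPM in WT-CD and 302 and 324 in R403Q-EMPA (1.28 ± 0.21, adjusted p = 0.0402). So did Chordc1 and Fkbp4, both partners of Hsp90, at 75.3 and 59.1 against 142 and 168, and at 24.4 and 18.3 against 50.0 and 56.2 (1.17 ± 0.17 and 1.27 ± 0.21, adjusted p = 0.0252 and 0.0402). Chordc1, Fkbp4, Rhou, Sh3pxd2b, Slc29a1, P4ha1 and Arhgap28 fell outside the naming rule in this comparison and were named after their values were seen. Other genes that rose were P4ha1, Cyp1b1, the mTORC1 inhibitor Ddit4, the small GTPase Rhou, the podosome scaffold Sh3pxd2b and the nucleoside transporter Slc29a1. Ddit4 was at 28.1 and 27.1 in WT-CD, then 29.4 and 43.9 in R403Q-CD, then 65.4 and 77.8 in R403Q-EMPA (1.33 ± 0.22, adjusted p = 0.0402). Cyp1b1, a cytochrome P450 that oxidises oestrogens and fatty acids, was at 14.4 and 11.6, then 19.5 and 26.7, then 38 and 40.5 (1.55 ± 0.25, adjusted p = 0.0374). Ddit4 and Cyp1b1 had their lowest values in WT-CD and their highest in R403Q-EMPA.

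Nppa, the atrial natriuretic peptide of stressed cardiomyocytes, was called among the members as well, at 13.7 and 8.15 CPM in WT-CD, then 41.0 and 33.0 in R403Q-CD, then 220 and 58.2 in R403Q-EMPA (3.65 ± 0.51, edgeR adjusted p = 0.0232). In Kcnip1 Tenm4 nuclei of the same libraries it was at 9.34 and 7.84, then 50.4 and 31.8, then 264 and 46.6. In both populations R403Q-EMPA replicate 1 was the highest library. The 6 cardiomyocyte markers summed to 349 and 287 CPM in WT-CD members, then 376 and 352 in R403Q-CD, then 371 and 438 in R403Q-EMPA. The part of cardiomyocyte RNA in the Nppa result was not tested. Without R403Q-EMPA replicate 1 the log2 difference of Nppa was 2.40 (adjusted p = 0.0405).

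The 11 lower genes included Hpse2 (-2.69 ± 0.26, adjusted p = 0.0020) and Rgs6 (-1.33 ± 0.19, adjusted p = 0.0252), with Slc6a6, Cracr2a, Il15ra, Ccbe1, Plekha6, Fgf12, Arhgap28 and Dbp, by edgeR. Hpse2 kept an adjusted p under 0.05 in all 14 alternative settings, where its log2 difference ranged from -3.00 to -2.39. Plekha6, a membrane-associated pleckstrin homology protein, was at 598 and 522 CPM in WT-CD, then 451 and 407 in R403Q-CD, then 292 and 275 in R403Q-EMPA (-1.02 ± 0.16, adjusted p = 0.0316). Fgf12, which modulates sodium channels, was at 25.8 and 27.1, then 22.7 and 20.3, then 9.61 and 5.88 (-1.77 ± 0.30, adjusted p = 0.0402). Tll2, the remaining gene, is in the rule, since members must hold more UMIs of their own list than of the one with Tll2. Without WT-CD replicate 1, 430 genes were called, and without WT-CD replicate 2 there were 126, with all 27 among both. When any R403Q-CD or R403Q-EMPA library was left out, most of the 27 calls were lost.

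Heat shock genes were followed as a list of 16, which had been drawn up with earlier results of these libraries known and is no independent evidence of direction. All 16 were tested. Against R403Q-CD, 3 were called higher and none lower in R403Q-EMPA, and the log2 difference was above 0 for all 16, with a median of 1.12 against 0.00 over all genes. Both R403Q-EMPA libraries were above both R403Q-CD libraries for all 16 genes, where 27.0% of all genes tested were. Against WT-CD 4 were called, the median was 1.25 against -0.01, and all 16 were again apart, with 20.6% of all genes so placed. For R403Q-CD against WT-CD the median was 0.03 and 1 of 16 was above without overlap, with 15.4% of all genes so placed. Hspb1, the small heat shock protein Hsp27, was at 29.4 and 11.4 CPM in WT-CD, then 13.5 and 21.8 in R403Q-CD, then 70.2 and 68.0 in R403Q-EMPA (1.92 ± 0.35 against R403Q-CD, adjusted p = 0.0928, not called by edgeR). Hspa8, the constitutive Hsp70, was at 118 and 62.9, then 88.7 and 102, then 212 and 216 (1.12 ± 0.23, adjusted p = 0.127). Hspa5, the Hsp70 of the endoplasmic reticulum, was at 266 and 111, then 130 and 168, then 335 and 371 (1.20 ± 0.30, adjusted p = 0.202). The inducible pair Hspa1a and Hspa1b, whose reads cannot be assigned with certainty between near-identical copies, had 2 to 10 UMIs per library in WT-CD and R403Q-CD and 11 to 34 in R403Q-EMPA. Immediate early genes, which respond to tissue handling as well as to signals, had a median of 0.35 for R403Q-EMPA against R403Q-CD and no called gene among 18 tested, of which 9 were above without overlap of the libraries and 0 below, where 27.0% and 19.2% of all genes were. The part of tissue handling in the heat shock result was not tested. Fos was at 1.75 to 9.38 CPM in all 6 libraries.

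The same genes were compared between the members and the Kcnip1 Tenm4 nuclei by an interaction term, with the library as a block. None of the called chaperone genes passed this test. For Hsph1 the difference between the changes was -0.21 ± 0.22 on the log2 scale for R403Q-EMPA against R403Q-CD (edgeR, adjusted p = 0.95), and for Hspa4l -0.02 ± 0.25 (adjusted p = 0.998). Hsph1 in Kcnip1 Tenm4 nuclei was at 38.7 and 30.0 CPM in WT-CD, then 45.8 and 44.6 in R403Q-CD, then 194 and 273 in R403Q-EMPA. Of the 13 and 27 called genes, only Tll2, a rule gene, had a change that passed this test. The chaperone change was therefore not shown to be particular to the members, and the interaction p does not show that the populations changed alike.

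Heat shock factor binds pairs and rows of the unit GAA and its reverse complement TTC. The upstream sequences of the called chaperone genes are given because these genes moved together. Windows of 250 bases before the transcription start were taken from RefSeq (GRCm38.p6) by gene symbol, a different build from the GRCm39 named for the count files, and were searched on both strands for GAANNTTC and TTCNNGAA, each its own reverse complement. Of 32851 windows of this length in the table, 12.8% held at least 1. A gene can have several windows, and a match in at least 1 of them was held by 14.5% of the 27025 genes listed. Of the 7 called chaperone and co-chaperone genes, 6 were in the table, and 3 of these held a match in at least 1 window. Capitals mark the match, and each sequence runs 5′ to 3′ on the strand of the gene. The windows of Hspa4l, Stip1 and Chordc1 held neither string of letters, which says nothing about binding elsewhere.
Hsph1, minus strand, chr5:149636337-149636586: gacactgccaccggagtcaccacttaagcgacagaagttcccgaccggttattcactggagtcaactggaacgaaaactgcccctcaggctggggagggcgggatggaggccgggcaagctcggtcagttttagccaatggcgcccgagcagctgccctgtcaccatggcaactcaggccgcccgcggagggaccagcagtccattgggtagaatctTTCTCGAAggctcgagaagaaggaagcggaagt
Dnaja1, plus strand, chr4:40722218-40722467: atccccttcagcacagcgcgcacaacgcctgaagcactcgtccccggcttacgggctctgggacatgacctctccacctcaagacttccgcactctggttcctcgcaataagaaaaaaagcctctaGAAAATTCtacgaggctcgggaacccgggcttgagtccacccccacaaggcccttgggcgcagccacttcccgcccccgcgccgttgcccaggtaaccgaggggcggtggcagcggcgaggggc
Fkbp4, minus strand, chr6:128438657-128438906: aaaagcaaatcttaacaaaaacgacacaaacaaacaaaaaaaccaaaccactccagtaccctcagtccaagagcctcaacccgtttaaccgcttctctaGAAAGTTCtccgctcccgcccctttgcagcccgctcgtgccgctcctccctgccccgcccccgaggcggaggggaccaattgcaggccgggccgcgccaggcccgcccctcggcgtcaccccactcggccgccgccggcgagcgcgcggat
In the Hsph1 window the match ended 25 bases before the start of transcription, in that of Dnaja1 116 bases before it and in that of Fkbp4 143 bases before it. Dnaja1 has 2 further starts in the table, without a match. These are matches of letters in a reference sequence and no binding was measured.

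Clock genes were followed as a list of 20, of which 19 were tested, again with earlier results known. The clock is a loop in which Arntl (Bmal1) and Clock or Npas2 activate the Per, Cry, Nr1d1 and Dbp genes, whose products feed back. Against WT-CD, Arntl was called higher and Dbp lower in R403Q-EMPA. Arntl was at 2.68 and 7.86 CPM in WT-CD, then 8.75 and 7.13 in R403Q-CD, then 39.4 and 29.4 in R403Q-EMPA (2.62 ± 0.40 against WT-CD, edgeR adjusted p = 0.0316; 2.08 ± 0.39 against R403Q-CD, adjusted p = 0.0994). Dbp, an output transcription factor of the clock, was at 150 and 83.6, then 69.2 and 86.7, then 39.4 and 25.5 (-1.85 ± 0.28 against WT-CD, adjusted p = 0.0291; -1.29 ± 0.28 against R403Q-CD, adjusted p = 0.146). The 2 genes moved in opposite directions. Without WT-CD replicate 2 the difference of Arntl from WT-CD was 3.69. Against R403Q-CD no clock gene was called, 7 of the 19 were above and 11 below without overlap of the libraries, where 27.0% and 19.2% of all genes were. Tef was at 346 and 349, then 340 and 328, then 221 and 202, and Hlf at 241 and 194, then 186 and 214, then 134 and 112 (-0.70 ± 0.15 and -0.74 ± 0.17 against R403Q-CD, adjusted p = 0.143 and 0.156). Nfil3, the repressor that opposes Dbp, Tef and Hlf, was at 2.01 and 3.79, then 4.37 and 3.00, then 13.9 and 13.7 (1.85 ± 0.45, adjusted p = 0.190). Nr1d1 was at 93.3 and 51.2, then 35.0 and 56.7, then 26.4 and 13.1 (-1.86 ± 0.35 against WT-CD, adjusted p = 0.0664), and without R403Q-EMPA replicate 1 the difference was -2.47. Ciart had 2 and 1 UMIs in R403Q-EMPA and 8 to 28 in the other libraries, which is too few for a fold to be read. The labels give no time of day for the samples, so a time of collection that coincided with the groups cannot be told apart from them. In Kcnip1 Tenm4 nuclei Dbp was at 138 and 94.8, then 78.9 and 126, then 43.2 and 23.3, and the difference between the changes for R403Q-EMPA against WT-CD did not pass the test for Dbp (-0.04 on the log2 scale, edgeR adjusted p = 0.997) or for Arntl (0.99, adjusted p = 0.885).

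**Figure D4:**
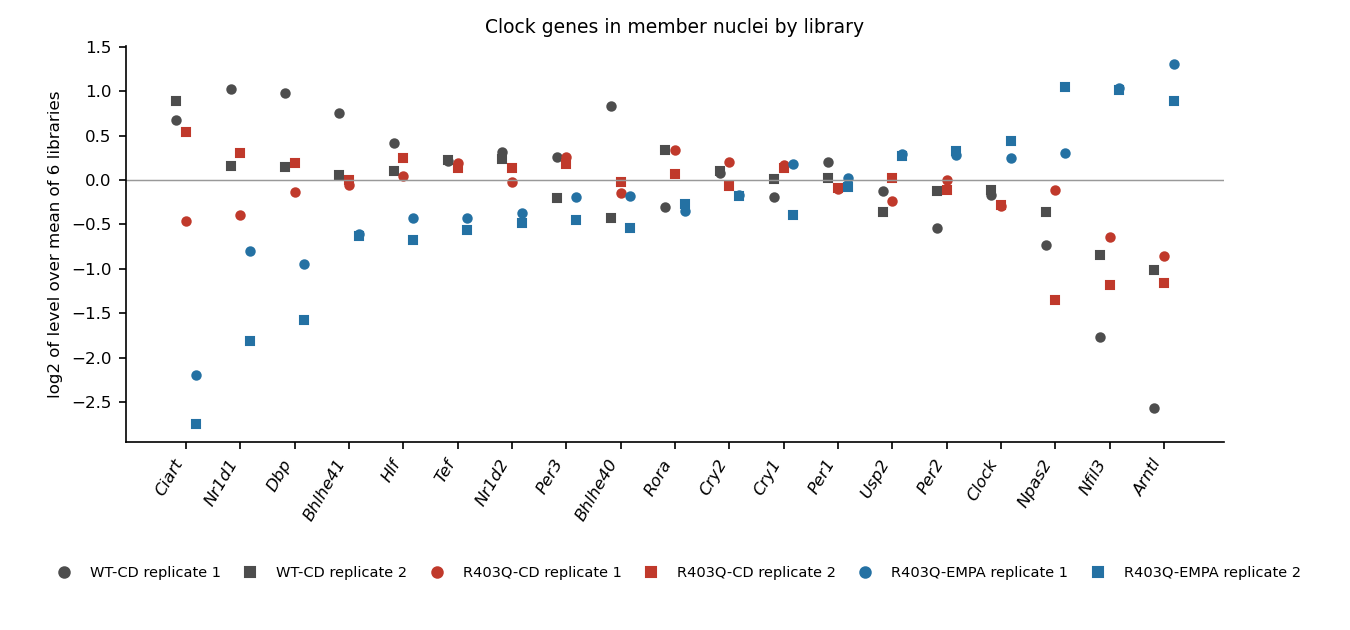
Log2 of the level in member nuclei over the mean of the 6 libraries (vertical axis) for 19 clock genes (horizontal axis), colored by group, with circles for replicate 1 and squares for replicate 2. Ciart, Nr1d1, Dbp, Hlf and Tef are lowest in both R403Q-EMPA libraries, and Arntl, Nfil3, Npas2 and Clock are highest there.

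Signalling and activation genes gave no call in any comparison. Among 11 tested activation genes, the median log2 difference of R403Q-EMPA from R403Q-CD was 1.12, with 10 above 0 and 7 above without overlap of the libraries, where 27.0% of all genes tested were. Fn1 (fibronectin) was at 105 and 47.2 CPM in WT-CD, then 38.2 and 43.2 in R403Q-CD, then 148 and 87.0 in R403Q-EMPA (1.49 ± 0.33, edgeR adjusted p = 0.146). Meox1, a transcription factor of activated fibroblasts, was at 6.69 and 6.99, then 5.17 and 7.51, then 22.6 and 11.8 (1.41 ± 0.40, adjusted p = 0.284). Both were highest in R403Q-EMPA replicate 1, the library in which the Postn list held the most nuclei. Fap, the fibroblast activation protease, had the opposite order, at 202 and 190, then 239 and 217, then 166 and 139 (-0.63 ± 0.16, adjusted p = 0.212). Complement C3 was at 487 and 212, then 217 and 236, then 604 and 385 (1.08 ± 0.31, adjusted p = 0.297). C4b was at 11 and 4.66, then 3.98 and 6.76, then 62.5 and 14.4 (2.82 ± 0.61, adjusted p = 0.143), and without R403Q-EMPA replicate 1 the difference was 1.38 (adjusted p = 0.942). C7, a terminal complement component, was at 269 and 492, then 492 and 968, then 461 and 476 (0.92 ± 0.32 for R403Q-CD against WT-CD, adjusted p = 0.999). The alarmin Il33 was at 148 and 90.6, then 75.6 and 111, then 73.5 and 39.9 (-1.08 ± 0.29 for R403Q-EMPA against WT-CD, adjusted p = 0.217), and Csf1, which sustains macrophages, at 137 and 112, then 98.2 and 97.6, then 152 and 132 (0.49 ± 0.16 against R403Q-CD, adjusted p = 0.372).

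Among 19 growth factor genes tested, Igf1 was at 131 and 156 CPM in WT-CD, then 191 and 194 in R403Q-CD, then 205 and 291 in R403Q-EMPA (0.73 ± 0.20 against WT-CD, edgeR adjusted p = 0.217). The Wnt list had 13 genes tested. Wnt5b was at 52.5 and 69.6, then 25.8 and 39.4, then 30.3 and 43.8 (-0.91 ± 0.26 for R403Q-CD against WT-CD, adjusted p = 0.999). Among 19 protease genes, Adamtsl3, a matrix protein related to the Adamts proteases, was at 862 and 948, then 643 and 645, then 482 and 522 (-0.90 ± 0.17 for R403Q-EMPA against WT-CD, adjusted p = 0.0657). Adamtsl3 was lower in both R403Q-EMPA libraries than in the 4 others, just outside the threshold against WT-CD. Klf4, which was among the genes that set the members apart, was at 136 and 80.4, then 74.8 and 78.1, then 123 and 167 (0.87 ± 0.23 for R403Q-EMPA against R403Q-CD, adjusted p = 0.251). In the oxidase list 8 genes were tested, with a median of 0.35 for R403Q-EMPA against R403Q-CD and all 8 above 0.

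**Figure D5:**
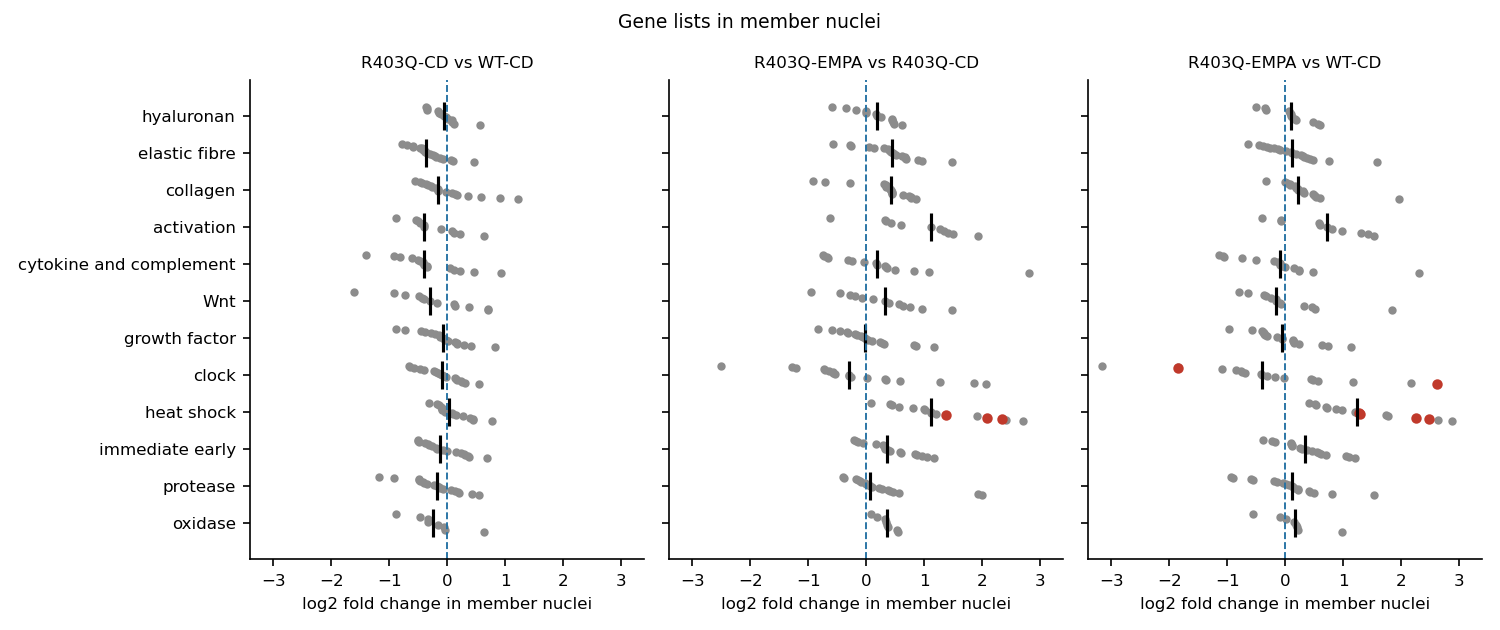
Log2 fold change in member nuclei (horizontal axis) of the tested genes of 12 lists (rows) in the 3 comparisons (panels), with called genes in red, other genes in gray, the median of a list as a black bar and the median of all 12474 genes as a dashed line. The heat shock row lies right of the dashed line in both comparisons with R403Q-EMPA, and the clock row spreads to both sides.

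Whether any change was particular to the members was asked against the Kcnip1 Tenm4 nuclei, over 12897 genes. For R403Q-CD against WT-CD no gene passed (0%), with 597 at an unadjusted p under 0.05 (4.63%) and 0 by DESeq2. The smallest p values were those of Unc13c and Flrt2 (edgeR, adjusted p = 0.0983 for both). Unc13c, which primes vesicles for release, was at 51.2 and 57.4 CPM of the members in WT-CD and 37.8 and 25.5 in R403Q-CD, while Kcnip1 Tenm4 nuclei held 6.23 and 3.75, then 13.6 and 8.21. Flrt2, a ligand of Unc5 guidance receptors, was at 221 and 202, then 154 and 191 in members and at 83.4 and 68.9, then 95.7 and 107 in the other nuclei. A230057D06Rik, Ccbe1 and Nnat followed, with adjusted p from 0.152 to 0.419. For R403Q-EMPA against R403Q-CD 12 genes passed (0.0930%) and against WT-CD 21 (0.163%), where DESeq2 gave 0 and 1. With all other fibroblast nuclei as comparator, 0 of the 12 and 10 of the 21 passed again. Among the genes named by the rule, Fhit and Ret differed from the Kcnip1 Tenm4 nuclei. So did the macrophage gene F13a1 and the smooth muscle gene Myh11, which are markers of other cell types. The Kcnip1 Tenm4 nuclei of R403Q-EMPA numbered 145 and 173, against 415 to 953 in the 4 other libraries. Abca8a, which also passed, is in the rule for fibroblasts.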

How the data were processed

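The study isolated nuclei from fresh frozen cardiac tissue and sequenced 6 single-nucleus libraries. Per the labels and the submitters' processing notes, the authors made the deposited UMI counts per gene and barcode with Cell Ranger 8.0.1 on GRCm39; the values are raw counts with no normalization. The groups came from the labels, and the members, gene lists and rules were chosen with earlier results of these data known. UMI counts of members were summed per library and tested with edgeR 4.0.16 in R 4.3.3 (filterByExpr, TMM, quasi-likelihood test, all 6 libraries in 1 fit, Benjamini-Hochberg adjustment over all genes tested, threshold 0.05). Differences between populations were tested in 1 fit of members and Kcnip1 Tenm4 nuclei (their list at 2 or more UMIs and above the other lists) with the library as a block. Shares were compared by exact permutation over libraries. Levels are CPM without TMM, with 20 as the minimum for leading genes. The genes named were the rule's genes, markers, list genes, up to 10 called genes in each direction by size of change (for no call, the 10 smallest p), 5 by the interaction test and the 20 highest and 10 lowest leading genes; others were named after their values were seen, and some are not reported here. Scripts were tested on simulated data. Alternatives were DESeq2 1.42.0, RLE factors, no filter on low counts, fewer libraries or groups, no mitochondrial filter, removal of doublets (scrublet in scanpy 1.11.5), a threshold of 3 UMIs, the rule without the Postn list, other comparison nuclei and thinning to 1000 UMIs. Intervals are 95% Clopper-Pearson and, like the floor of 3 counts, cover counting error only.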

Additional observations from a re-analysis of the deposited data

Results flagged for a closer look

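For 7 named genes the change with EMPA differed between the members and the Kcnip1 Tenm4 nuclei by the interaction test of edgeR. Each value is the log2 change in members minus that in Kcnip1 Tenm4 nuclei, of which R403Q-EMPA held 145 and 173. With all other fibroblast nuclei as comparator, 0 of the 12 genes against R403Q-CD and 10 of the 21 against WT-CD passed again.

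F13a1, a macrophage gene, differed by 3.65 against R403Q-CD (adjusted p = 9.58e-05) and 4.32 against WT-CD (adjusted p = 7.91e-07). It was at 45.7 and 116 CPM in R403Q-EMPA members and at 14.9 and 2.12 in the other nuclei, which were 9 UMIs and 1. Myh11, the smooth muscle myosin, differed by -6.75 (adjusted p = 0.00578), with 2 and 0 UMIs in Kcnip1 Tenm4 nuclei of R403Q-CD and 34 and 6 in R403Q-EMPA, so its fitted size depends on the prior count. Cacnb2, a calcium channel subunit, differed by -1.45 (adjusted p = 0.0277), at 49.3 and 60.4 in R403Q-CD members and 85.1 and 36.0 in R403Q-EMPA members, against 21.3 and 33.9, then 88.0 and 80.5 in the other nuclei.

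Against WT-CD, the growth factor gene Ptn differed by 2.32 (adjusted p = 4.84e-05), at 21.1 and 16.0 in WT-CD members and 45.2 and 15.7 in R403Q-EMPA members, against 139 and 100, then 54.8 and 23.3 in the other nuclei. 2310043O21Rik differed by -1.0 (adjusted p = 0.000151), the receptor tyrosine kinase Ret by -1.50 (adjusted p = 0.000905) and Fhit by 0.87 (adjusted p = 0.00193). Ret was at 63.6 and 82.1, then 68.3 and 103 in members and 31.1 and 28.6, then 79.7 and 117 in the other nuclei. The part of UMIs from other cell types in these results was not tested.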

How the results depend on the processing

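With 2 libraries a group, the calls depended on the processing, and the cause was not tested. In members, genes called for R403Q-CD against WT-CD numbered 48 without the filter on low counts and 0 to 229 when a library was left out. For R403Q-EMPA against R403Q-CD they numbered 55 by DESeq2, 230 without the filter, 228 with only the groups compared, 7 at a threshold of 3 UMIs, 6 without the Postn list, and 0 to 229 when a library was left out. Against WT-CD they numbered 68 by DESeq2, 280 without the filter, 4 with only the groups compared, and 4 to 430 when a library was left out. DESeq2 called all 13 genes of the former comparison and 24 of the 27 of the latter. A lone library left in a group was assumed to vary like the other groups.

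For the difference from Kcnip1 Tenm4 nuclei, the numbers in the same order of comparisons were 8, 31 and 48 without the filter, 32, 30 and 127 against Fbn2 Pappa Fgf10 nuclei, 1, 28 and 98 against all other fibroblast nuclei, and 0 to 9, 6 to 32 and 10 to 57 when a library was left out. DESeq2 gave 0 and 1 for the comparisons with EMPA, and removal of predicted doublets 13 for the last. Of the 12 genes for R403Q-EMPA against R403Q-CD, 2 passed again with Fbn2 Pappa Fgf10 nuclei and 0 with all other fibroblast nuclei. Of the 21 against WT-CD, 8 and 10 did.

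The share of fibroblast nuclei for R403Q-CD against WT-CD turned to 0.836 points without R403Q-CD replicate 1 and 3.03 without WT-CD replicate 2, in a range of -3.34 to 3.03. The share of all nuclei for R403Q-EMPA against R403Q-CD turned to 0.0666 points without the Postn list, 0.119 after thinning and 0.374 without R403Q-EMPA replicate 1, in a range of -1.46 to 0.374. For 91 named gene results under 1270 alternatives with an adjusted p, 939 kept their side of the threshold, 190 lost it, 141 gained it and 0 changed direction. No paired analysis was run, because the labels give the libraries no shared replicate numbers.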
